A study of Mus musculus with 2 samples.

Results

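Interferon-gamma and the receptors for interleukin-12 and interleukin-18 were followed through leukocytes of the mouse retinal pigment epithelium and choroid. The 5 genes, of 32285 in the deposited matrices, were chosen by name: Ifng, which encodes the cytokine, Il12rb1 and Il12rb2, the chains of the interleukin-12 receptor, and Il18r1 and Il18rap, the binding and accessory chains of the interleukin-18 receptor. The study compared 2 single-cell libraries, 1 per group, of live CD45+ cells sorted from digested RPE/choroid. The flox library came from eyes of mice with the genotype label IL-17ra fl, and the knockout library from mice labelled IL-17RA CKO, a conditional knockout of the interleukin-17 receptor gene Il17ra. Both groups received NaIO3 (sodium iodate, which damages the retinal pigment epithelium) at 20 mg/kg by intraperitoneal injection, so no library shows untreated eyes. The sources used here do not give the cell type in which Il17ra was deleted, the exons removed, the time after injection, or the age and number of the animals.

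Interleukin-12 and interleukin-18 are made by dendritic cells, macrophages and other cells during infection or tissue damage. Interleukin-12 signals through JAK2, TYK2 and STAT4, and interleukin-18 through MyD88, IRAK kinases and NF-kB. Both act on NK cells and on activated T cells, which respond by making interferon-gamma. Interferon-gamma in turn signals through the receptor chains IFNGR1 and IFNGR2, and induces chemokines, guanylate-binding proteins and immunity-related GTPases in the cells it reaches.

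Cells were placed in gates by raw UMIs, the counted RNA molecules. Of the barcodes with at least 1000 UMIs, those with under 10% mitochondrial UMIs were kept, which left 3420 flox cells and 3982 knockout cells with median depths of 8742 and 7714 UMIs. CD8 T cells had at least 2 UMIs of Cd3d and Cd3e together and at least 1 of Cd8a and Cd8b1 (670 flox and 1051 knockout cells). Cd4 T cells had the same Cd3 UMIs with Cd4 and no Cd8 UMI (336 and 274 cells), and the gate called other T had neither (372 and 338). NK cells had at least 1 Ncr1 UMI and no Cd3d or Cd3e UMI (211 and 276), B cells at least 2 Cd79a UMIs (632 and 1007) and myeloid cells at least 10 Lyz2 UMIs (829 and 757). Defining markers were present in each gate: Klrb1c was detected in 95.3% and 96.0% of NK cells, Ms4a1 in 93.0% and 93.7% of B cells and Csf1r in 94.1% and 96.2% of myeloid cells. The other T gate contained gamma-delta T cells, with Trdc in 29.6% and 23.7% of its cells. The libraries shared 4 barcodes, 37 and 78 cells passed gates of 2 lineages, and doublets were kept because the gate rule has no step for them. Both libraries mixed cells with female and male transcripts, in different proportions. Of CD8 T cells, 486 flox and 301 knockout cells had Xist and no Y-linked UMI, and 99 and 452 had Y-linked UMIs and no Xist, so the main ratios between the libraries are also given within each sex. Il17ra was measured at 132 CPM in all kept flox cells and 123 CPM in all kept knockout cells, but 3′ tags can lie outside the deleted part and check nothing here.

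Levels are given in CPM, the UMIs of a gene scaled to the total UMIs of its gate, with exact Poisson 95% intervals. With 1 library per group there is no replicate error and no test of the genotype, and genotype cannot be told apart from any other difference between the libraries. A ratio between libraries or gates has a conditional binomial 95% interval. It is called higher or lower here only where it is at least 1.5-fold in either direction, its interval leaves out 1 and at least 20 UMIs stand behind it, which is named the size rule below. Shares of cells carry exact Clopper-Pearson intervals, and all intervals cover counting error only. A thinned share is the share expected if each cell were reduced to 3000 UMIs.

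Ifng lies on chromosome 10 (chr10:118441046-118445892, plus strand, mm10), Il12rb1 on chromosome 8 (chr8:70808449-70821424, plus strand) and Il12rb2 on chromosome 6 (chr6:67291318-67376188, minus strand). Il18r1 (chr1:40465552-40500854) and Il18rap (chr1:40515362-40551705) follow each other on the plus strand of chromosome 1, 14507 bases apart. They belong to a cluster of interleukin-1 receptor family genes, and Il1rl1, the interleukin-33 receptor, ends 136 bases before Il18r1 starts. RefSeq promoter windows (build GRCm38.p6, 250 bases before to 50 after each start) were found for 4 of the 5 genes, 6 windows in all. The 250 bases upstream of 3 of them are printed because Il12rb2 and Il18rap had the most alike profiles of any 2 members across the gates, as described below, while Ifng is the cytokine that the receptors act on. They run 5′ to 3′ on the strand of the gene, at chr10:118440796-118441045 for Ifng, chr6:67376189-67376438 for Il12rb2 and chr1:40515112-40515361 for Il18rap, and capitals mark TTCNNNGAA, the palindrome bound by STAT factors.
Ifng: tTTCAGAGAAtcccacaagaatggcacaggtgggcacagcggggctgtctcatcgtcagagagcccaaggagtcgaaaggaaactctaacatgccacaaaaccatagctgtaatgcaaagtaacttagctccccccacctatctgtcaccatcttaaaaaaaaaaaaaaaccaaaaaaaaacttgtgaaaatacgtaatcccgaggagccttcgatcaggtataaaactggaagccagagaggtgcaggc
Il12rb2: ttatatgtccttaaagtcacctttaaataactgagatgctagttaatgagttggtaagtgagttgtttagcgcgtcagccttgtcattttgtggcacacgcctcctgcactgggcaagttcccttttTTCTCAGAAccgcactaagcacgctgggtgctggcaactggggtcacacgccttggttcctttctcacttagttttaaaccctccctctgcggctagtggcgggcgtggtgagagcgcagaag
Il18rap: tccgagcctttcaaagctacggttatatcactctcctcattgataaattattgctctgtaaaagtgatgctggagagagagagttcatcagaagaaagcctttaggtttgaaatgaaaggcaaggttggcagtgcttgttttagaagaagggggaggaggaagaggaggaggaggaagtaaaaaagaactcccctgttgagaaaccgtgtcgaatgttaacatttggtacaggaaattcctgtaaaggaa
The window of Ifng held 1 STAT palindrome, whose first base lay at -249 from the start, and that of Il12rb2 held 1 at -123. The Il18rap window held none, and 1 of the 3 Il18r1 windows held 2, at -219 and -152. Of all 32851 windows of this length, 8.30% held the palindrome. The T-box half-site TCACACC (in 3.98% of all windows), the AP-1 site TGANTCA (7.81%) and a site for NF-kB (0.411%), each searched on both strands, were in none of the 6 windows. A match of letters is a description and not a bound site.

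The 5 genes were found mostly in T and NK cells. Cells that passed T or NK gates and no other lineage held 96.8% of the Ifng UMIs of the flox library and 94.6% of those of the knockout library. For the receptors, the same cells held between 84.4% (Il18rap, flox) and 93.45% (Il18r1, flox) of the UMIs, and cells in none of the T, NK, B and myeloid lineages between 4.02% (Il12rb1, flox) and 11.4% (Il18rap, flox). B cells stood for the background of free RNA. Without cells of 2 lineages, 0.821% of flox B cells and 0.844% of knockout B cells had an Ifng UMI, at 1.19 and 1.30 CPM, with median depths of all B cells of 6196 and 6468 UMIs. The RNA of empty flox droplets, barcodes of at most 100 UMIs, held Ifng at 67.8 CPM and Il18r1 at 135.7 CPM. The share of cells with a UMI was higher in each T and NK gate than in B cells for all 5 genes.

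**Figure D1:**
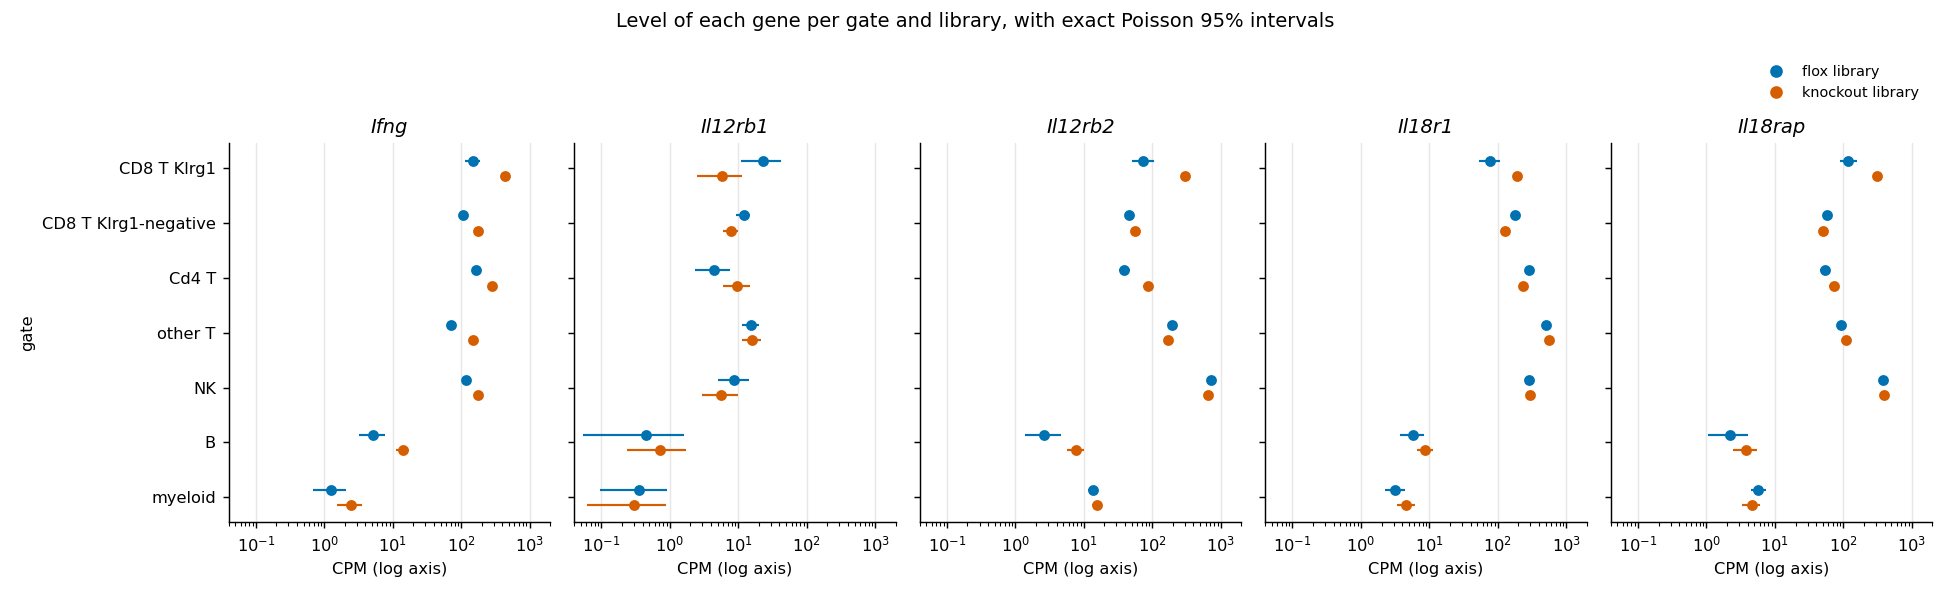
CPM on a log axis for each of the 5 genes in 7 gates of the flox library (blue) and the knockout library (orange), with exact Poisson 95% intervals. Il12rb2 and Il18rap stand highest in NK cells of both libraries, Il18r1 in the other T gate, and all 5 genes are lower in B and myeloid cells than in the T and NK gates.

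Ifng, the effector cytokine of type 1 immunity, was higher in the knockout library in CD8 T cells, Cd4 T cells and the other T gate. CD8 T cells had 107.6 CPM in the flox library (99.9 to 115.8, 722 UMIs) and 214.8 CPM in the knockout library (205.6 to 224.2, 2060 UMIs), and the ratio was 1.996 (1.832 to 2.175). The 2 intervals of the levels do not overlap. The ratio was smaller in female cells, at 1.27 (1.114 to 1.455, 103.5 against 131.8 CPM), than in male cells, at 2.10 (1.77 to 2.52, 123.7 against 260.1 CPM); the female value does not reach the size rule, and the difference between the sexes was not tested. Ifng was detected in 35.97% of flox and 47.0% of knockout CD8 T cells at median depths of 9274 and 8289 UMIs, or 19.3% and 31.9% after thinning. With both libraries given the same mix of CD8 T subsets, the log2 ratio was 0.86 in place of 1.

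Few cells carried much of the Ifng RNA, and such cells were more frequent in the knockout library. In flox, 32 CD8 T cells (4.78%) had at least 5 Ifng UMIs and held 49.0% of the UMIs of the gate. In knockout, 120 cells (11.4%) did, and held 64.7%. The cells holding 50% of the UMIs numbered 34 of 670 in flox and 70 of 1051 in knockout, counted from the cell with most UMIs.

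In Cd4 T cells, Ifng was 166.6 CPM in flox and 278.6 CPM in knockout, a ratio of 1.67 (1.48 to 1.89). A single flox Cd4 T cell held 89 UMIs, 18.3% of that gate's total, and without the top cell of each library the log2 ratio was 0.95 in place of 0.74. Within sexes the ratio was 1.36 (1.12 to 1.66) in female and 2.40 (1.84 to 3.16) in male cells, so the female value again falls short of the size rule. The other T gate had 71.8 CPM in flox and 147.7 CPM in knockout, a ratio of 2.056 (1.745 to 2.428), with 1.74 in female and 3.12 in male cells. NK cells fell just short of the size rule. Their level was 118.5 CPM in flox (103.3 to 135.4) and 174.5 CPM in knockout (157.2 to 193.2), with a ratio of 1.47 (1.24 to 1.75), with 1.59 (1.29 to 1.96) in female and 1.30 (0.786 to 2.22) in male cells. The female value passes the rule. The NK cell with most Ifng UMIs held 18.4% of the gate's total in flox and 14.3% in knockout. In the flox library the order of Ifng levels was Cd4 T, NK, CD8 T and other T, of which the intervals of NK and CD8 T overlap, and in the knockout library it was Cd4 T, CD8 T, NK and other T, of which those of NK and other T overlap.

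**Figure D2:**
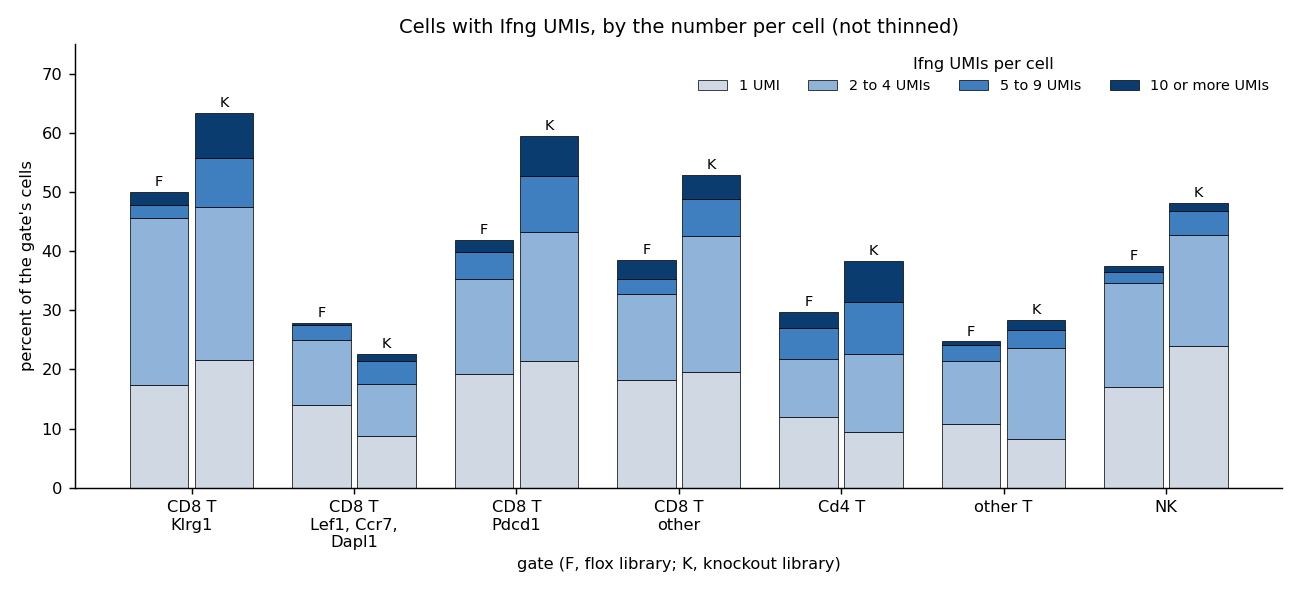
Percent of the cells of each gate with Ifng UMIs, stacked by the number of UMIs per cell, for the flox (F) and knockout (K) libraries; cells without a UMI are not drawn. Cells with 10 or more UMIs made up 2.17% of flox and 7.73% of knockout Klrg1 CD8 T cells, and 2.68% of flox and 6.93% of knockout Cd4 T cells.

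The CD8 T cells were then split into subsets, between which the ratios were not tested. Klrg1 marks short-lived effector CD8 T cells, and 46 flox (6.87%) and 194 knockout CD8 T cells (18.5%) had at least 1 Klrg1 UMI. In these cells Ifng was 148.8 CPM in flox (114.6 to 190.1) and 435.8 CPM in knockout (401.9 to 471.8), and the ratio was 2.93 (2.26 to 3.85), with 1.995 in female and 3.11 in male cells. Klrg1-negative cells had 104.8 and 176.9 CPM, a ratio of 1.69 (1.54 to 1.85). In them the ratio was 1.66 (1.37 to 2.02) in male and 1.12 (0.966 to 1.30) in female cells, whose interval holds 1. Among Klrg1-negative cells, those with at least 2 UMIs of the naive and memory genes Lef1, Ccr7 and Dapl1 (273 and 341 cells) had 51.8 CPM in flox and 61.8 CPM in knockout, a ratio of 1.19 (0.979 to 1.455). Cells with Pdcd1, the PD-1 gene, outside that group (198 and 321 cells) had 162.6 and 303.1 CPM, a ratio of 1.86 (1.625 to 2.14), with 1.44 in female and 2.24 in male cells. The remaining Klrg1-negative cells (153 and 195) had 170.3 and 271.1 CPM, a ratio of 1.59 (1.34 to 1.90), with 0.917 in female and 1.895 in male cells. Thus, with the sexes together, the Lef1, Ccr7 and Dapl1 cells were the CD8 T subset in which Ifng did not pass the size rule. The same held in male cells. In female cells Ifng passed in Klrg1 cells alone.

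Il12rb1 encodes the chain that the interleukin-12 receptor shares with the interleukin-23 receptor, and it was the most sparsely counted of the 5 genes. CD8 T cells had 12.7 CPM in flox (10.1 to 15.7, 85 UMIs) and 7.51 CPM in knockout (5.87 to 9.45, 72 UMIs), a ratio of 0.592 (0.427 to 0.821). It was lower in both sexes, at 0.492 (0.262 to 0.876) in female and 0.400 (0.237 to 0.687) in male cells. The share of CD8 T cells with a UMI was 10.0% in flox and 6.09% in knockout (3.53% and 2.09% after thinning), against 0.317% and 0.497% of B cells. In Cd4 T cells the gene was higher in knockout, 4.46 against 9.70 CPM (ratio 2.18, 1.05 to 4.70), which rests on 13 and 22 UMIs. The other T gate had 15.3 and 15.7 CPM, and NK cells 8.74 and 5.64 CPM, with a ratio of 0.646 whose interval (0.279 to 1.455) holds 1. Gate intervals overlapped for most neighbours, so no order of levels is given for Il12rb1. Klrg1 CD8 T cells had 10 flox and 8 knockout UMIs, too few for a ratio.

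Il12rb2, the chain that binds STAT4 and is limiting for the interleukin-12 response, was highest in NK cells. There it was 724 CPM in flox (686 to 764) and 658 CPM in knockout (624 to 693), in 86.7% and 85.9% of cells, and the ratio was 0.908 (0.842 to 0.980), with 0.982 in female and 1.17 in male cells. The other T gate followed with 191.8 and 167.5 CPM (ratio 0.873, 0.772 to 0.987). The NK level was 15-fold the CD8 T level in flox and 7.155-fold in knockout. In CD8 T cells Il12rb2 was higher in the knockout library, 48.3 CPM (43.2 to 53.85) against 91.95 CPM (86.0 to 98.2), a ratio of 1.90 (1.67 to 2.17), with 1.615 (1.33 to 1.96) in female and 1.47 (1.17 to 1.85) in male cells. The male value falls short of the size rule. Cd4 T cells had 39.1 CPM in flox and 85.5 CPM in knockout, a ratio of 2.19 (1.73 to 2.78), with 2.65 in female and 1.68 in male cells. The order NK, other T, CD8 T, Cd4 T was the same in both libraries, and in both the intervals of CD8 T and Cd4 T cells overlapped.

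By subset, Il12rb2 passed the size rule in Klrg1 cells, Pdcd1 cells and the remaining Klrg1-negative cells. Klrg1 cells had 74.4 CPM in flox (50.9 to 105.1) and 297 CPM in knockout (270 to 327), and the ratio was 3.997 (2.788 to 5.921), with 3.66 in female and 4.87 in male cells. Of the flox Klrg1 cells, 7 of 46 had an Il12rb2 UMI, and 1 cell held 53.1% of the UMIs, while 113 of 194 knockout cells had one. Klrg1-negative cells had 46.5 and 56.8 CPM, a ratio of 1.22 (1.05 to 1.42) that does not reach the size rule, with 1.04 in female and 0.911 in male cells. Pdcd1 cells were low in both libraries, at 7.50 and 21.97 CPM (ratio 2.93, 1.59 to 5.82, from 13 and 59 UMIs), with 3.31 in female cells and 1 flox UMI in male cells. The remaining Klrg1-negative cells had 51.4 and 124 CPM (ratio 2.41, 1.79 to 3.29; 1.54 in female and 1.36 in male cells, both intervals holding 1), and the Lef1, Ccr7 and Dapl1 cells 64.9 and 56.4 CPM (ratio 0.869, 0.719 to 1.05).

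Il18r1, the chain that binds interleukin-18, was highest in the other T gate, with 514 CPM in flox (490 to 540) and 561 CPM in knockout (534 to 590), in 77.7% and 69.5% of its cells. NK cells had 281 and 293 CPM and Cd4 T cells 281 and 234 CPM; in flox these neighbours had overlapping intervals. CD8 T cells were lowest of the T and NK gates, with 172 CPM in flox (162 to 182) and 137 CPM in knockout (130 to 145), and their ratio was 0.798 (0.737 to 0.865), at 0.820 in female and 0.922 in male cells. None of these gates passed the size rule between the libraries. Within CD8 T cells, Pdcd1 cells had less Il18r1 in knockout, 114 against 60.7 CPM (ratio 0.5315, 0.429 to 0.657). Within sexes that ratio was 0.436 in female cells and 2.253 in male cells, the latter from 8 UMIs in 17 male flox cells. Klrg1 cells went the other way, with 76.7 CPM in flox (52.8 to 107.8) and 191 CPM in knockout (169 to 215.5), and the ratio was 2.49 (1.73 to 3.69). Within sexes it was 4.57 (2.84 to 7.69) in female and 0.972 (0.532 to 1.95) in male cells, of which flox held 9.

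Il18rap, which completes the signalling interleukin-18 receptor, was highest in NK cells, with 373 CPM in flox (346 to 402) and 397 CPM in knockout (371 to 425), in 83.4% and 82.6% of cells. Next came the other T gate with 93.7 and 109.7 CPM, CD8 T cells with 61.0 and 87.8 CPM and Cd4 T cells with 53.8 and 73.2 CPM; the intervals of CD8 T and Cd4 T cells overlapped in both libraries. The ratio was 1.44 (1.28 to 1.62) in CD8 T cells (1.39 in female and 1.87 in male cells) and 1.36 (1.09 to 1.70) in Cd4 T cells, both short of the size rule. Klrg1 cells again stood apart, with 119 CPM in flox (88.3 to 155.9) and 307 CPM in knockout (279 to 338), and the ratio was 2.59 (1.94 to 3.54), at 3.83 in female and 2.33 in male cells. Pdcd1 cells had less in knockout, 40.4 against 23.8 CPM (ratio 0.590, 0.414 to 0.8405; 0.677 in female and 0.836 in male cells, both intervals holding 1).

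Counted by gate with the sexes together, 2 of the 5 genes (Ifng and Il12rb2) were higher in knockout CD8 T cells and 1 (Il12rb1) lower. Of all 12147 genes measured there, 4.86% were higher and 3.47% lower by the same rule. In Klrg1 CD8 T cells the 4 genes with enough UMIs were higher, against 7.14% of genes, and none was lower, against 4.91%. In Klrg1-negative cells Ifng was higher (4.53% of genes) and Il12rb1 lower (3.61%). In Cd4 T cells Ifng, Il12rb1 and Il12rb2 were higher (3.99% of genes) and none was lower (5.67%). In the other T gate Ifng was higher (3.18%) and none was lower (3.55%). In NK cells none of the 5 passed in either direction, where 3.53% of genes were higher and 3.15% lower. Of the Klrg1-negative subsets, the Pdcd1 cells had 2 genes higher (6.5%) and 2 lower (4.83%), the remaining cells 2 higher (4.19%) and none lower (4.03%), and the Lef1, Ccr7 and Dapl1 cells none in either direction (3.43% and 4.05%). Over all kept cells Ifng was higher (47.9 against 99.5 CPM, 3.7% of genes) and none was lower (5.6%). The mix of sexes differed between the libraries, and several of these calls did not hold in both sexes. In CD8 T cells Ifng passed in male cells alone and Il12rb2 in female cells alone, while Il12rb1 was lower in both. Ifng also passed in male cells alone in Cd4 T, Klrg1-negative, Pdcd1 and the remaining Klrg1-negative cells, and over all kept cells. Il12rb1 in Cd4 T cells had too few UMIs within either sex for a ratio. In Klrg1 cells Il18r1 passed in female cells alone. In Pdcd1 cells Il12rb2 passed in female cells alone, Il18rap passed in neither sex and Il18r1 went in opposite directions. In the remaining Klrg1-negative cells Il12rb2 passed in neither. In NK cells Ifng passed in female cells alone.

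**Figure D3:**
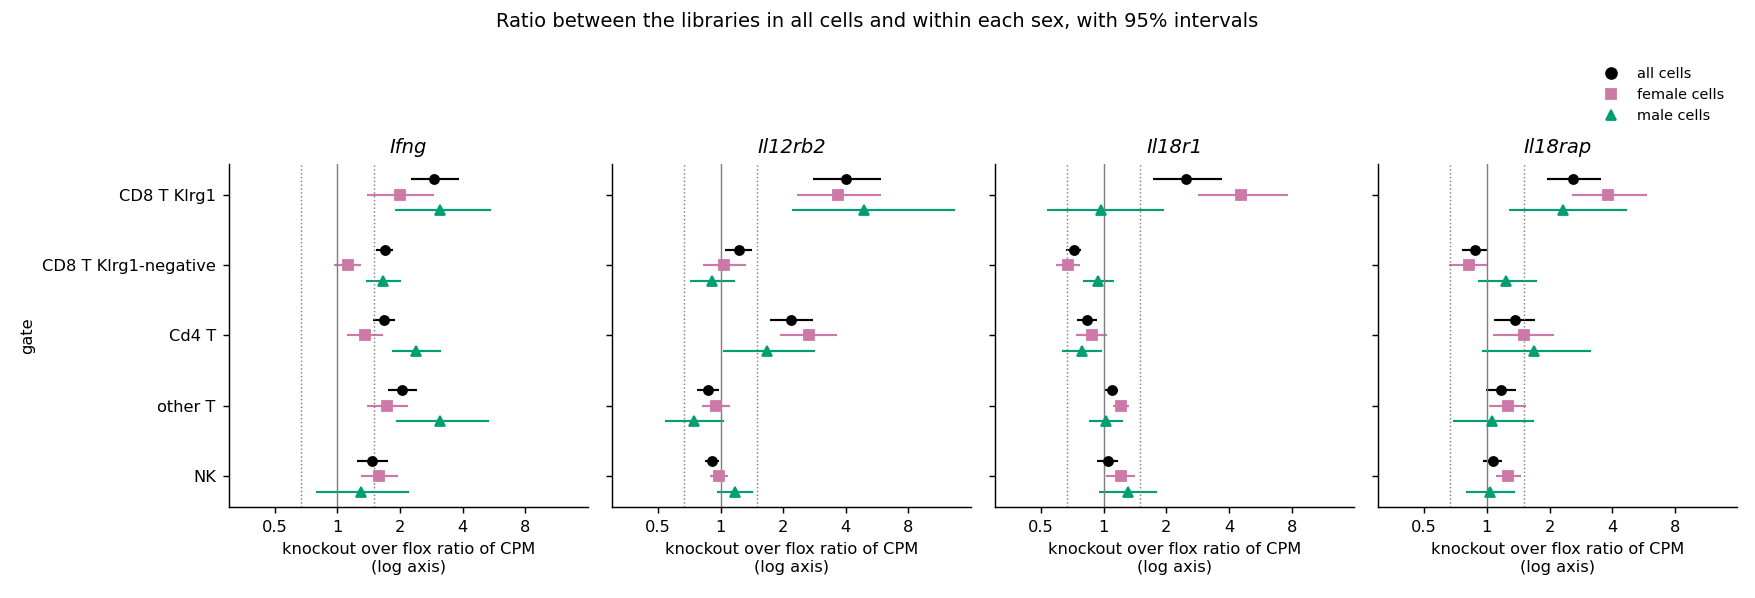
Ratio of knockout over flox CPM on a log axis for 4 genes in 5 gates, in all cells (black circles), female cells (pink squares) and male cells (green triangles), with 95% intervals; the solid line marks 1 and the dotted lines 1.5-fold either way. Il12rb2 and Il18rap in Klrg1 CD8 T cells lie to the right of 1 in both sexes, whereas Il18r1 there is 4.57 in female and 0.972 in male cells.

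Within each library, Klrg1 CD8 T cells were set against Klrg1-negative CD8 T cells. In knockout, Klrg1 cells had 6.13-fold the level of Il18rap (5.34 to 7.03), 5.24-fold that of Il12rb2 (4.58 to 5.99) and 2.46-fold that of Ifng (2.24 to 2.71), and the 3 were among 11.8% of genes higher there. Both sexes showed it, with 7.63 and 4.83 for Il18rap, 6.52 and 4.17 for Il12rb2, and 2.42 and 2.70 for Ifng in female and male cells. Il18r1 had a ratio of 1.49 (1.30 to 1.71), under the size rule, and none was lower (6.53% of genes). Its ratio was 2.43 (1.93 to 3.04) in female and 0.803 (0.640 to 0.999) in male knockout cells, past the size rule in female cells alone. In flox the same contrast gave 2.08 for Il18rap (1.52 to 2.80) and 1.60 for Il12rb2 (1.07 to 2.31), both higher (6.5% of genes), 1.42 for Ifng (1.081 to 1.838), and 0.430 for Il18r1 (0.295 to 0.608), which was lower (3.19% of genes). Within female and male flox cells these were 1.63 and 2.57 for Il18rap, 1.86 and 0.780 for Il12rb2, and 0.359 and 0.776 for Il18r1, with 9 male Klrg1 cells.

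How far the libraries differed in Klrg1 cells depended on the number of Klrg1 UMIs asked for. In flox 31 of the 46 cells had exactly 1 Klrg1 UMI, and in knockout 68 of 194. Free Klrg1 RNA can give a single UMI, but how many of these cells it accounts for was not tested. Of all B cells, those of 2 lineages included, 0.475% in flox and 0.993% in knockout had a Klrg1 UMI, with up to 3 and 5 per cell. Of CD8 T cells 6.87% and 18.5% did. In the cells with 1 Klrg1 UMI, Il12rb2 had 2 UMIs in flox (6.52 CPM) and 124 in knockout (267 CPM), a ratio of 41.0 (11.1 to 342), and Il18r1 stood at 29.3 and 202 CPM (6.90, 3.48 to 15.6). In the cells with at least 2 Klrg1 UMIs, 15 flox and 126 knockout cells, Il12rb2 was 243.5 and 312.5 CPM (ratio 1.28, 0.880 to 1.94) and Il18r1 195 and 186 CPM (0.953, 0.620 to 1.53), neither past the size rule. The Il12rb2 value rested on 1 flox cell with 17 of the 30 UMIs: without the cell with most UMIs in each library it was 114.4 and 294.9 CPM, a ratio of 2.58 (1.48 to 4.90) that passed the rule, while Il18r1 gave 1.18 (0.703 to 2.115). Il18rap kept a ratio of 1.54 (1.04 to 2.37), from 219 to 337 CPM. Ifng differed more among these cells, with 97.4 CPM (12 UMIs) in flox and 510 CPM in knockout, a ratio of 5.235 (2.97 to 10.2). Il18r1 thus passed the size rule in cells with a single Klrg1 UMI and not in those with more, with or without its top cells, while Ifng (1.69 and 5.235) and Il18rap (3.17 and 1.54) passed in both classes. The granzyme gene Gzma, a transcript of effector cells, was 789 CPM in flox and 3299 CPM in knockout cells with 1 Klrg1 UMI, and 3490 and 4631 CPM in those with 2 or more. Markers of other cells also moved with this gate. Of the 2 Cd4 T cell markers, Cd4 and Cd40lg, both were at 0 in its flox cells and both were detected in its knockout cells (summed level 77.75 CPM), where Cd40lg was in 20.6% of cells; 0 of 46 flox cells allows a share of cells with a UMI of up to 6.52% by the limit of 3 counts, and the exact upper end is 7.71%. All 6 NK markers were detected in both libraries, with summed levels of 523 and 745 CPM, and 4 of 6 monocyte and macrophage markers in flox (Fcgr3 and C1qa at 0) and 6 of 6 in knockout, with 1388 and 814 CPM. Their part in the result was not tested.

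**Figure D4:**
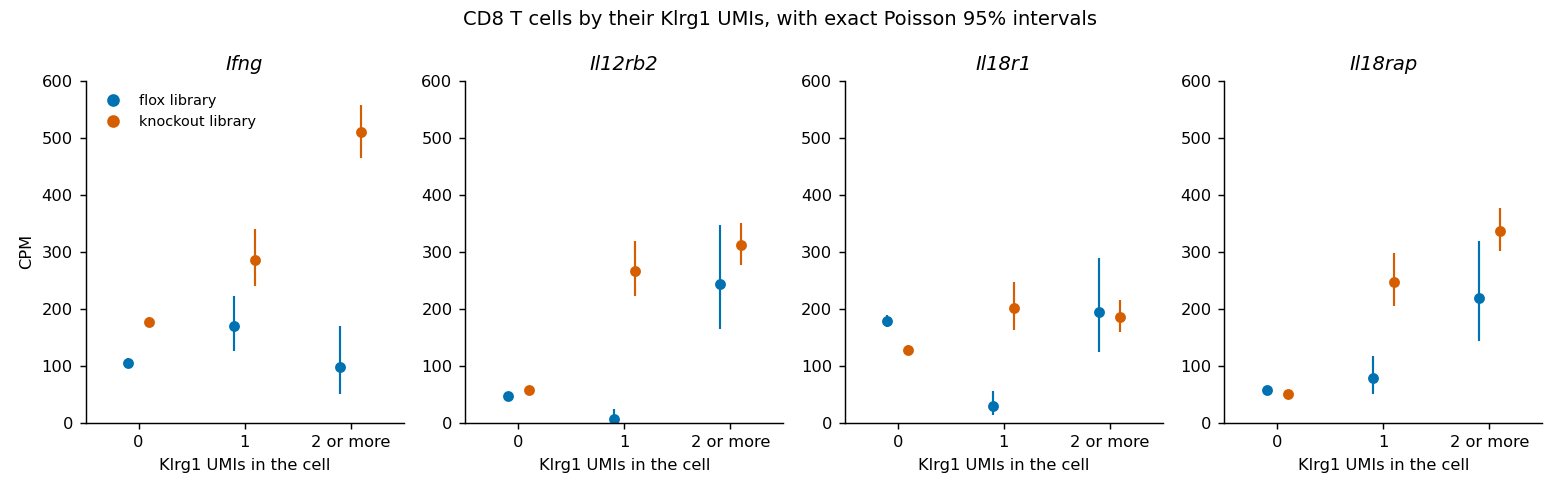
CPM of 4 genes in CD8 T cells with 0, 1 and 2 or more Klrg1 UMIs, in the flox (blue) and knockout (orange) libraries, with exact Poisson 95% intervals. For Il12rb2 the flox value is 6.52 CPM in cells with 1 Klrg1 UMI and 243.5 CPM in those with 2 or more, and the knockout values are 267 and 312.5 CPM; 17 of the 30 flox UMIs in the last class are from 1 cell.

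Receptor genes differed between gates within each library. NK over CD8 T was 6.12 in flox and 4.53 in knockout for Il18rap, and 1.63 and 2.135 for Il18r1, so that 3 of the 4 receptor genes were higher in NK cells of each library (16.8% of genes in flox and 15.3% in knockout) and none lower (11.9% in each). Ifng gave 1.10 (0.942 to 1.28) and 0.812 (0.725 to 0.908), neither past the size rule. The other T gate over CD8 T gave 2.99 and 4.09 for Il18r1 and 3.97 and 1.82 for Il12rb2. In flox these and Il18rap (1.54) were higher (11.8% of genes), and in knockout these and Il12rb1 (2.095); 10% of genes were higher in knockout, and none of the 5 was lower in either library (5.19% and 5.55%). Pdcd1 cells were low in 3 of the 4 receptor genes. The remaining Klrg1-negative cells exceeded them 6.86-fold in flox and 5.65-fold in knockout for Il12rb2, 1.92-fold and 4.41-fold for Il18rap and 1.52-fold and 2.77-fold for Il18r1, all higher (3.22% and 4.32% of genes). Il12rb1 did not pass, with ratios of 0.857 (0.442 to 1.61) and 0.572 (0.239 to 1.235) from 16.7 and 11.2 CPM in Pdcd1 cells. Ifng had ratios of 1.05 (0.870 to 1.26) and 0.894 (0.790 to 1.01), and none of the 5 was lower (4.73% and 6.46%).

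The chains of the interleukin-18 receptor were often found in the same cells. For those of the interleukin-12 receptor, the few Il12rb1 UMIs limit what co-detection can show. In CD8 T cells, Il18rap was detected in 48.2% of flox cells with an Il18r1 UMI and 22.6% of those without, and in 50.8% and 25.0% of knockout cells. Both chains were detected in 59.7% of flox and 58.0% of knockout NK cells. Il12rb2 with both interleukin-18 receptor genes was found in 54.0% and 52.5% of NK cells, in 7.16% and 9.42% of CD8 T cells and in 6.52% and 23.2% of Klrg1 CD8 T cells. Both interleukin-12 receptor chains were detected together in 8 flox and 14 knockout CD8 T cells. Il12rb1 was in 7.48% of flox CD8 T cells with an Il12rb2 UMI (3.28 to 14.2) and 10.5% of those without (8.07 to 13.3), and in 5.15% (2.84 to 8.485) and 6.42% (4.80 to 8.375) in knockout, so the intervals overlapped in both libraries. In NK cells Il12rb2 was in 13 of 15 flox and 9 of 11 knockout cells with Il12rb1, beside 86.7% and 86.0% of those without. In Cd4 T cells it was in 23.1% of flox cells with Il12rb1 and 10.2% without, and in 25.0% and 18.1% in knockout. The other T gate leaned the other way, with 19.5% and 38.1% in flox and 27.8% and 34.4% in knockout. The intervals of each pair overlapped. Any receptor gene was detected in 98.1% and 96.7% of NK cells, 64.5% and 61.3% of CD8 T cells and 3.01% and 4.37% of B cells.

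Ifng was more frequent in cells with Il12rb2 in Cd4 T cells and the other T gate. Of flox Cd4 T cells with an Il12rb2 UMI, 63.9% (46.2 to 79.2, 36 cells) had an Ifng UMI, against 25.7% (20.8 to 31.0) of those without, or 37.6% and 16.55% after thinning. In knockout the shares were 64.7% (50.1 to 77.6, 51 cells) and 32.3% (26.2 to 38.9), or 48.0% and 24.3% thinned. The other T gate had 42.5% and 14.7% in flox and 53.5% and 15.6% in knockout. CD8 T cells showed less of a gap. In flox 39.25% of cells with and 35.35% of cells without Il12rb2 had an Ifng UMI, which turned to 14.96% and 20.13% after thinning, and in knockout the shares were 54.0% and 44.5% (36.8% and 30.2% thinned).

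CD8 T cells with an Ifng UMI also differed from those without in other effector RNA. The chemokine gene Ccl3 was 14.98-fold (10.25 to 22.64) higher in Ifng-positive cells in flox and 3.26-fold in knockout, and Ccl4 4.09-fold and 2.87-fold. Tbx21, encoding the type 1 factor T-bet, was 2.23-fold and 2.14-fold higher, and Tnf 1.90-fold and 1.99-fold. The granzyme gene Gzma was at 0.851 in flox and 2.40 in knockout. Immediate early genes also differed, with Atf3 at 5.62 and 1.79 and Egr1 at 1.925 and 1.95. Fos was at 1.66 and 0.822, and Jun at 1.03 and 0.674. Of the receptors, Il18rap gave 1.35 and 1.65, Il12rb2 1.10 and 1.235 and Il18r1 1.05 and 0.988. The median depths of Ifng-positive and Ifng-negative CD8 T cells were 9361 and 9133 UMIs in flox and 7594 and 8788 in knockout. In NK cells the same contrast was smaller for Ccl3 (1.16, 0.987 to 1.37, in flox and 1.95 in knockout). It was also smaller there for Ccl4 (1.49 and 1.79) and Tbx21 (1.25 and 1.035).

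Myeloid cells held Il12rb2, and at a lower level Il18rap, above the B cell background. Il12rb2 was 13.55 CPM in flox and 15.5 CPM in knockout (ratio 1.14, 0.908 to 1.44), and 10.8 and 14.4 CPM without cells of 2 lineages, against 0.715 and 0.977 CPM in B cells treated the same way. Without cells of 2 lineages Il18rap was 4.51 and 3.01 CPM in myeloid cells, against 0.238 and 0.489 CPM in B cells, from 1 and 3 UMIs. After thinning, 3.26% of these flox and 4.23% of these knockout myeloid cells had an Il12rb2 UMI, and 0.2995% and 0.262% of the B cells. Among myeloid cells without a second lineage, 11.1% of flox cells and 13.45% of knockout cells without C1qa, a complement gene of macrophages, had an Il12rb2 UMI. Of those with C1qa, 0 of 31 and 0 of 32 did, which allows shares of cells with a UMI of up to 9.68% and 9.375% by the limit of 3 counts, with exact upper ends of 11.2% and 10.9%. Ifng (1.24 and 2.43 CPM) and Il12rb1 (0.354 and 0.304 CPM) were near 0 in myeloid cells, Il18r1 had 3.19 and 4.56 CPM and Il18rap 5.76 and 4.56 CPM. Dendritic cells with Flt3 (205 and 125 cells) had Il12rb2 at 5.86 and 10.7 CPM, a ratio of 1.83 (1.04 to 3.25) that was higher (5.11% of genes) with no member lower (3.39%). They had Il18rap at 9.85 and 10.0 CPM, a ratio of 1.02 (0.608 to 1.68). Basophils and mast cells with Cpa3 or Mcpt8, 16 flox and 10 knockout cells, carried both interleukin-18 receptor genes, Il18r1 at 213 and 369 CPM and Il18rap at 272 and 356 CPM. In B cells Ifng (5.09 and 14.01 CPM) and Il12rb2 (2.66 and 7.59 CPM) passed the size rule upward (2.36% of genes) and none downward (5.3%), but without cells of 2 lineages both fell to the levels given above.

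Il18, Ebi3, Il27 and Il15 were counted mostly in myeloid cells, which held between 60.3% (Il15, knockout) and 76.5% (Il18, flox) of their UMIs when counted without cells of 2 lineages. Il18 was 49.7 CPM in flox and 33.3 CPM in knockout myeloid cells, a ratio of 0.671 (0.584 to 0.770) just short of the size rule, and 36.4 and 21.85 CPM in Flt3 dendritic cells, a ratio of 0.601 that was lower. Ebi3, a shared subunit of interleukin-27 and interleukin-35, was 41.2 and 42.8 CPM in myeloid cells. Il27 was 14.8 and 11.1 CPM there (ratio 0.753), and Il15, another cytokine that sustains NK cells, 36.75 and 26.1 CPM (ratio 0.711). Il12a, the p35 subunit of interleukin-12, was found in B cells at 10.6 and 15.03 CPM, with 65.75% and 78.6% of its UMIs, where Ebi3 was lower in knockout (10.6 and 6.57 CPM). Il12b, the p40 subunit, came from 3 cells in each library. In knockout 1 Flt3 dendritic cell held 30 of the 232 UMIs, and 2 cells outside the named gates held the other 202, 179 of them in 1 cell. In flox 1 cell of the NK gate held 31 of the 34 UMIs. Il23a, the p19 subunit of interleukin-23, had 10 of 13 UMIs in flox myeloid cells, and in knockout 28 of 37 in 4 cells of no lineage. Il18bp, the soluble inhibitor of interleukin-18, was lower in knockout myeloid cells (5.40 against 1.82 CPM, ratio 0.3375) and CD8 T cells (3.58 against 1.67 CPM). Il1r2, a decoy receptor for interleukin-1, was lower in CD8 T cells (2.83 against 1.15 CPM) and NK cells (41.0 against 1.41 CPM, from 75 and 3 UMIs), so that 2 of 6 measured inhibitors and related receptors were lower in CD8 T cells and 1 of 3 in NK cells, with none higher in either. Of all genes, 3.47% were lower and 4.86% higher in CD8 T cells, and 3.15% and 3.53% in NK cells. Within sexes, none of the 3 inhibitors and related receptors measured in CD8 T cells of each sex was lower. Il18bp was lower in female myeloid cells alone. Il1r2 was lower in female NK cells, and no gene of its list was measured in male NK cells. Ebi3 was lower in female B cells alone.

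Genes of the interleukin-12 signal chain were partly lower in the knockout library and those of the interleukin-18 chain did not pass the size rule. In CD8 T cells 1 of 8 measured interleukin-12 chain genes was lower (3.47% of all genes) and none higher (4.86%), with a median log2 ratio of -0.21 beside 0.04 for all genes. This was Socs3, a feedback inhibitor (147 and 80.8 CPM, ratio 0.549). Within sexes Socs3 was lower in male CD8 T cells alone, together with Socs1, and in female CD8 T cells the gene lower was Stat3. In NK cells 2 of 7 were lower (3.15% of genes), the kinase gene Jak2 (ratio 0.590) and Socs3 (ratio 0.515), and in Cd4 T cells 3 of 7 (5.67%), with a median of -0.45 beside 0.01. None of the interleukin-18 chain genes, which run from Myd88 to Tnfaip3, passed in CD8 T (11 measured), Cd4 T (11), other T (11), NK (10), myeloid (11) or Flt3 dendritic cells (11).

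Of 11 measured transcription factors that act on Ifng, 2 were higher in knockout CD8 T cells (4.86% of genes) and 1 lower (3.47%), with a median log2 ratio of 0.13 beside 0.04 for all genes. Tbx21 was 110.5 CPM in flox and 170.8 CPM in knockout (ratio 1.546) and Zeb2, which acts with T-bet in effector cells, 94.1 and 198 CPM (ratio 2.11). Eomes, the T-box factor of memory cells, was lower at 143 and 75.8 CPM (ratio 0.531). Within sexes, Zeb2 was higher in both, Tbx21 passed the size rule in neither and Eomes was lower in male cells alone. In Klrg1-negative cells none of 11 was higher (4.53% of genes), with ratios of 1.41 for Tbx21 and 1.49 for Zeb2, and Eomes was lower (0.538), as were 3.61% of genes. In NK cells 1 of 11 passed, Prdm1, encoding Blimp-1, which was higher (26.8 and 49.85 CPM, ratio 1.86), as were 3.53% of genes. Within sexes Prdm1 was higher in female NK cells alone, and Zeb2 in male NK cells alone.

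Of 11 measured effector cytokine and granule genes, 6 were higher (4.86% of genes) and 1 lower (3.47%) in CD8 T cells, and the median log2 ratio was 0.60 beside 0.04 for all genes. In Klrg1-negative cells 3 of 10 were higher (4.53%) and 1 lower (3.61%), with a median of 0.16 beside 0.02. Gzma was 181 CPM in flox and 840 CPM in knockout (ratio 4.64), Tnf 35.0 and 67.9 CPM (1.94) and Ccl4 387 and 710 CPM (1.83), while Il17a had 2 and 18 UMIs (ratio 6.30, 1.51 to 55.9). The gene lower was Il10, an inhibitory cytokine. Within sexes 3 of 10 were higher and 1 lower in female cells, and 4 of 9 higher and none lower in male cells, with Gzma higher in both. Tnf passed in female cells alone and Ccl4 in male cells alone. Shares of all genes were not computed within sexes. In NK cells 1 of 9 was higher (Ccl3, ratio 1.53) and 1 lower (Csf2, 34 and 3 UMIs, ratio 0.0760, 0.0149 to 0.242), beside 3.53% and 3.15% of genes. In Cd4 T cells 7 of 11 were higher (3.99%) and 1 lower (5.67%), with a median of 1.13 beside 0.01. Immediate early genes, which tissue digestion and activation raise, had 2 of 11 higher in CD8 T cells (4.86% of genes), Egr2 (ratio 2.14) and Nr4a1 (1.66), and a median of 0.23 beside 0.04. In NK cells 1 of 10 was higher (3.53%), Egr1 (1.52), and 1 lower (3.15%), Fosb (0.581). Klrg1 CD8 T cells had 1 of 10 immediate early genes higher (7.14% of genes) and 4 lower (4.91%), with a median of -0.26 beside 0.13. Within sexes of CD8 T cells, Egr2 and Nr4a1 were higher in female cells alone. In male cells Atf3 was higher and Cd69 lower. The summed level of the immediate early genes was 3493 CPM in flox and 3851 CPM in knockout CD8 T cells, and their part in the Ifng difference was not tested.

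The receptor for interferon-gamma and the genes it induces were then read in the same cells. Ifngr1 was 499.5 CPM in flox and 579 CPM in knockout CD8 T cells, 982 and 960 CPM in NK cells, and 593 and 690 CPM in myeloid cells, none past the size rule. In Klrg1 CD8 T cells it was higher in knockout, 449 against 812 CPM (ratio 1.81). Ifngr2, the chain whose level limits the response in T cells, was higher in knockout CD8 T cells (17.3 and 27.3 CPM, ratio 1.58) and Cd4 T cells (39.8 and 74.5 CPM, ratio 1.87), and was 197 CPM in myeloid cells of both libraries. Of 6 genes of the receptor and its first signals, 1 was higher (4.86% of genes) and none lower (3.47%) in CD8 T cells, and in NK cells 1 (Jak2) was lower (3.15%).

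Although Ifng was higher in knockout T cells, none of the 10 measured interferon-gamma induced genes was higher in CD8 T cells and 6 were lower. Of all genes there, 4.86% were higher and 3.47% lower. The median log2 ratio of the list was -0.68 beside 0.04 for all genes. Cxcl10, a chemokine for activated T cells, was 54.6 CPM in flox and 8.24 CPM in knockout (ratio 0.151). The immunity-related GTPase genes Iigp1 (62.6 and 22.9 CPM, 0.366) and Irgm1 (0.532) were also lower, as was Cd274, which encodes PD-L1 (84.7 and 47.85 CPM, 0.565). Female cells had 1 of 10 higher and 3 lower (median -0.41 beside -0.01 for all genes), and male cells none of 9 higher and 8 lower (median -1.45 beside 0.13 for all genes). Shares of all genes past the rule were not computed within sexes. In NK cells 2 of 9 were lower (3.15% of genes), Cxcl10 (105 and 1.88 CPM, ratio 0.0178) and the class II transactivator gene Ciita (0.451). Within sexes neither gene passed in NK cells. None of 8 measured genes of the list was lower in female NK cells. In male NK cells 2 of 5 were, Gbp4 and Socs1. Myeloid cells, which carry both receptor chains, had 7 of 11 lower (3.5% of genes) and 1 higher (3.77%), with a median of -0.96. There Cxcl10 was 286 CPM in flox and 27.1 CPM in knockout (ratio 0.0949) and Iigp1 39.0 and 1.11 CPM (0.0286). Cxcl9, which interferon-gamma induces, was the gene higher, at 12.2 and 18.6 CPM (1.525). Within sexes Cxcl9 was higher in male myeloid cells alone. Cxcl10 and Iigp1 were lower in both, among 7 of 11 genes lower in female and 6 of 11 in male myeloid cells. Most genes of this list also respond to type I interferon, and which interferon acted was not tested.

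**Figure D5:**
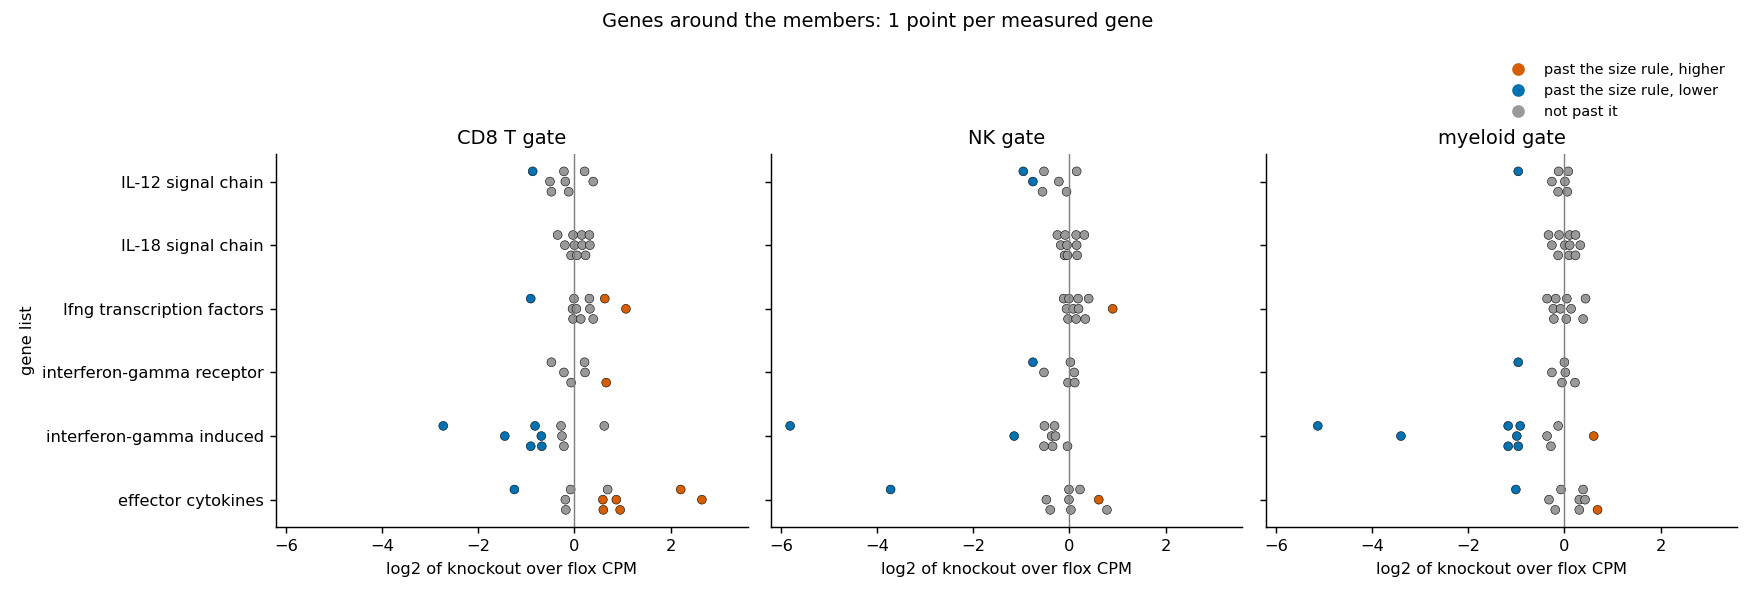
Log2 of knockout over flox CPM for each measured gene of 6 lists, in the CD8 T, NK and myeloid gates; each point is 1 gene, orange where higher and blue where lower by the size rule, and grey otherwise. Interferon-gamma induced genes lie mostly left of 0 in CD8 T and myeloid cells, effector cytokines mostly right of 0 in CD8 T cells, and the interleukin-18 signal chain has no coloured point.

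Across the 7 gates of both libraries (14 profiles of log2(CPM + 10), 11232 genes), the profiles most like each member were found by Pearson's r, as a description with no test, since gates of a library share its depth and preparation. The profile most like Il12rb2 was that of Il18rap (r = 0.96), followed by Sri, Tmed9, Baiap2 and Usp3. Il18rap was most like Sytl3 (0.98), then Galnt2, Esyt1, Hsd11b1 and Usp3. Il18r1 was most like Hs3st3b1 and Gata3 (both 0.98), then Prkar1a, Amd1 and Tanc1, and Ifng most like Fam53b, Rdx and Scamp3 (each 0.97), then Lck and Fbxl14. Il12rb1 was most like Ccdc166 (0.95), then Vmn2r84, Yeats2, Pik3r3 and Btbd11. Between members, r was 0.85 for Ifng and Il18r1 and 0.68 for Ifng and Il12rb1.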

How the data were processed

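The deposited values were raw UMI counts per gene and barcode, 1 matrix per library, made by the authors with Cell Ranger 4 (flox) and 7.0.1 (knockout) against mm10, per the file headers. The setting for intronic reads is not given in the sources used here, and counting and genotype cannot be told apart. Live CD45+ cells of RPE/choroid went into the single-cell 3′ kit, per the labels' protocols. The flox matrix holds 1002803 barcodes, most of them empty droplets, and the knockout matrix 4096. Total depth was 38623933 and 35944330 UMIs, and 3460 and 4024 barcodes had at least 1000.

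Counts were summed per library and gate and divided by the gate's total. Python 3.11.15, numpy 2.4.6, scipy 1.17.1, pandas 2.3.3 and scanpy 1.11.5 were used. With 1 library per group no p-value was computed. Tested on simulated data with 200 genes changed 3-fold, the size rule recovered 99.0% of them among CD8 T cells (12132 genes) and called 1.25% of unchanged genes; for NK cells (9551 genes) it was 97.9% and 1.76%. Both simulated libraries were drawn from the same pooled profile, so these rates cover counting error only. They hold no difference between cells, sexes, subsets or libraries, and changes nearer to 1.5-fold were not simulated.

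Named were the 5 genes, from each pathway list the genes past the size rule in CD8 T or NK cells (at most 4 per direction, by ratio), the ligands and receptor chains with at least 20 UMIs, and the 5 most alike genes per member, among genes with at least 200 UMIs. Other genes, among them the markers in Klrg1 cells and the genes named for myeloid cells and for Ifng-positive cells, were chosen after their values were seen. The members, gene lists and gates were chosen with earlier results of these data known. A gene of the CD8 T subset rule and another of the pathway lists are not reported here, and both were left out of the rule and the lists after the values were seen. Alternatives changed the depth, mitochondrial, doublet, gate, scaling, top-cell, sex and subset choices.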

Additional observations from a re-analysis of the deposited data

Results flagged for a closer look

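In Pdcd1 CD8 T cells without Klrg1, the ratio of knockout over flox Il18r1 went in opposite directions in the sexes. It was 0.436 in female cells (111.4 CPM in 154 flox cells and 48.6 CPM in 84 knockout cells, interval 0.294 to 0.631) and 2.253 in male cells (46.0 CPM in 17 flox cells and 103.7 CPM in 106 knockout cells, interval 1.10 to 5.37). The male flox value rests on 8 UMIs. In the knockout library the ratio of Klrg1 over Klrg1-negative CD8 T cells for Il18r1 also went in opposite directions. It was 2.432 in female cells (299.9 CPM in 43 Klrg1 cells and 123.3 CPM in 258 others, interval 1.93 to 3.04) and 0.803 in male cells (125.5 CPM in 107 Klrg1 cells and 156.3 CPM in 345 others, interval 0.640 to 0.999). Neither difference between the sexes was tested.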

How the results depend on the processing

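The log2 ratios of the 5 genes (29 in 6 gates) were recomputed under the alternatives, which gave 385 values. Of these 340 stayed within their counting interval, 43 moved further and 2 that had passed the size rule changed sign. Another 5, none past the size rule before, also changed sign: in male cells Il12rb2 (-0.13) and Il18rap (0.31) in Klrg1-negative CD8 T and Il12rb2 in NK cells, and with equal weight per cell Il12rb1 in other T (-0.13) and Il18r1 in NK cells (-0.04). Other limits of 500 or 2000 UMIs, 5% or 20% mitochondrial UMIs, removal of Scrublet doublets (24 flox and 56 knockout cells), of 2-lineage cells or of shared barcodes, and scaling by the median ratio moved none of the 29. Stricter gates gave Cd4 T ratios of 0.99 for Ifng and 1.82 for Il12rb2. Equal weight per cell gave 1.34 for Il12rb2 in CD8 T and 1.01 for Ifng in Cd4 T cells, and removal of the top cell 0.95 for Ifng in Cd4 T cells. Female cells alone gave 0.35 (Ifng) and 0.69 (Il12rb2) in CD8 T cells, 0.45 (Ifng) in Cd4 T cells, and -0.03 (Il12rb2), 0.27 (Il18r1) and 0.34 (Il18rap) in NK cells. Male cells alone gave -1.32 (Il12rb1), 0.55 (Il12rb2), -0.12 (Il18r1) and 0.90 (Il18rap) in CD8 T cells, 1.26 (Ifng) and 0.75 (Il12rb2) in Cd4 T cells, and 0.23 (Il12rb2) and 0.39 (Il18r1) in NK cells. With the same mix of CD8 T subsets, Ifng gave 0.86 and Il18rap 0.34. Il18r1 in Klrg1 CD8 T cells changed sign in male cells (-0.04) and with at least 2 Klrg1 UMIs (-0.07), an alternative chosen after seeing the data, as was removal of shared barcodes. The same Klrg1 limit gave 2.39 for Ifng, 0.36 for Il12rb2 and 0.62 for Il18rap, and, also without the top cells, an alternative added after seeing the data, 2.59, 1.37 and 0.91, with 0.24 for Il18r1. The cause was not tested. Of 90 shares recomputed at other depths, 8 moved, and 4 changed sign within their counting interval. Depth limits Il12rb1 most, with 12 to 85 UMIs per library in the CD8 T, Cd4 T, other T and NK gates. No paired analysis was possible because each group holds 1 library.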
